A study of Mus musculus with 4 samples.

Results

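The Wnt ligand genes Wnt2, Wnt2b, Wnt4, Wnt5a, Wnt5b, Wnt7a, Wnt7b and Wnt11 and the Wnt response genes Axin2 and Lgr5 were examined in lung tumours with and without CD109. All probes whose accession belongs to these 10 genes were taken, which gave 17 of the 56605 probes on the array. The genes are 10 of 23787 genes that could be named. Tumours came from KP mice of the C57BL/6J strain, a model of lung adenocarcinoma in which Cre recombinase starts the tumours; the labels do not spell out the alleles. All animals, controls included, received adenoviral Cre through the trachea 88 to 92 days before RNA was taken, and neither the promoter driving Cre nor the age of the mice is given in the labels. The control group was CD109+/+ (2 samples, both female). The other group was CD109-/- (2 samples, replicate 1 male and replicate 2 female), with 1 single-colour array per sample. Each label names lung tumours in the plural, so a sample is not known to be 1 tumour.

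Wnt proteins are secreted, lipid-modified ligands that bind frizzled receptors. Together with the co-receptors Lrp5 and Lrp6 they stabilise beta-catenin, which joins TCF/LEF factors on target genes, whereas other Wnts act mainly without beta-catenin, on cell shape and movement. In the lung, Wnt2 and Wnt2b are known as mesenchymal ligands needed for lung specification, and Wnt7b as a ligand of the airway epithelium. Axin2, a scaffold of the complex that degrades beta-catenin, is a widely used transcriptional readout of beta-catenin signalling, and Lgr5, a receptor for R-spondins, is a second one and marks stem cells in several epithelia.

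Levels are given as log2 processed signals from which the array's own 75th percentile was subtracted; that percentile lay between 557 and 688, and 0 spots were saturated. Differences are CD109-/- minus CD109+/+ with limma's standard error (SE, n = 2 per genotype), and levels of different probes are not compared because probes differ in efficiency. The labels do not say whether replicates were separate animals' tumours, so p-values measure only the spread between these samples, and the number of arrays limits the precision. With 2 against 2, an exact permutation test of a single value cannot reach a p of 0.05. The Cd109 probe read -3.70 and -4.66 on the CD109+/+ arrays and -7.98 and -7.87 on the CD109-/- arrays, where it did not clear background, so that it was at least 2.92-fold higher in CD109+/+ tumours (limma's adjusted p = 0.299); whether the deletion removed the part under this probe was not examined. The labels name lung tumour as the tissue, and each of 8 alveolar type 2 markers examined was above background on at least 1 array. Only probes that both arrays of a genotype read well above background, for 1 genotype or both, entered the test. Of 35777 probes tested, 0 had a limma p under 0.05 after Benjamini-Hochberg adjustment, the threshold used throughout (0% called), and 2438 had an unadjusted p under 0.05 (6.81%), 3.88% being higher and 2.94% lower in CD109-/- tumours.

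The Wnt genes did not share 1 direction. Wnt2 gave higher values in CD109-/- tumours and was 2.98-fold above the controls; Axin2 was 1.48-fold above them. Wnt5b, Wnt7a and Wnt11 had lower values, by 1.35-fold to 1.80-fold depending on the probe, and Wnt4 and Wnt5a differed by less than their errors. Wnt7b differed far more between samples of the same genotype than between genotypes. Of the 17 probes 13 were tested, and each of these was well above background on all 4 arrays. None of the 13 passed the threshold with limma (lowest adjusted p = 0.551), and 1, that of Wnt2, had an unadjusted p under 0.05. With single arrays left out, the Wnt7a differences ranged from -1.38 to -0.32 (probe 1) and -1.25 to -0.42 (probe 2). Those of Wnt5b ranged from -1.13 to -0.35 (probe 1) and -1.13 to -0.12 (probe 2). The 2 genotypes did not overlap in 7 tested probes, 2 of them higher and 5 lower in CD109-/- tumours, where 16.5% and 21.2% of all tested probes behaved so. The median difference of the 13 probes was -0.35, against -0.05 over all tested probes. Some genes count here with more than 1 probe, the 5 lower probes being both of Wnt5b, both of Wnt11 and Wnt7a probe 2. By brightest tested probe, 8 member genes were tested, and 2 lay higher and 2 lower without overlap. Over all genes tested 20.3% and 18.2% did so. The median of the 8 genes was -0.25, against 0.00 over all genes.

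**Figure D1:**
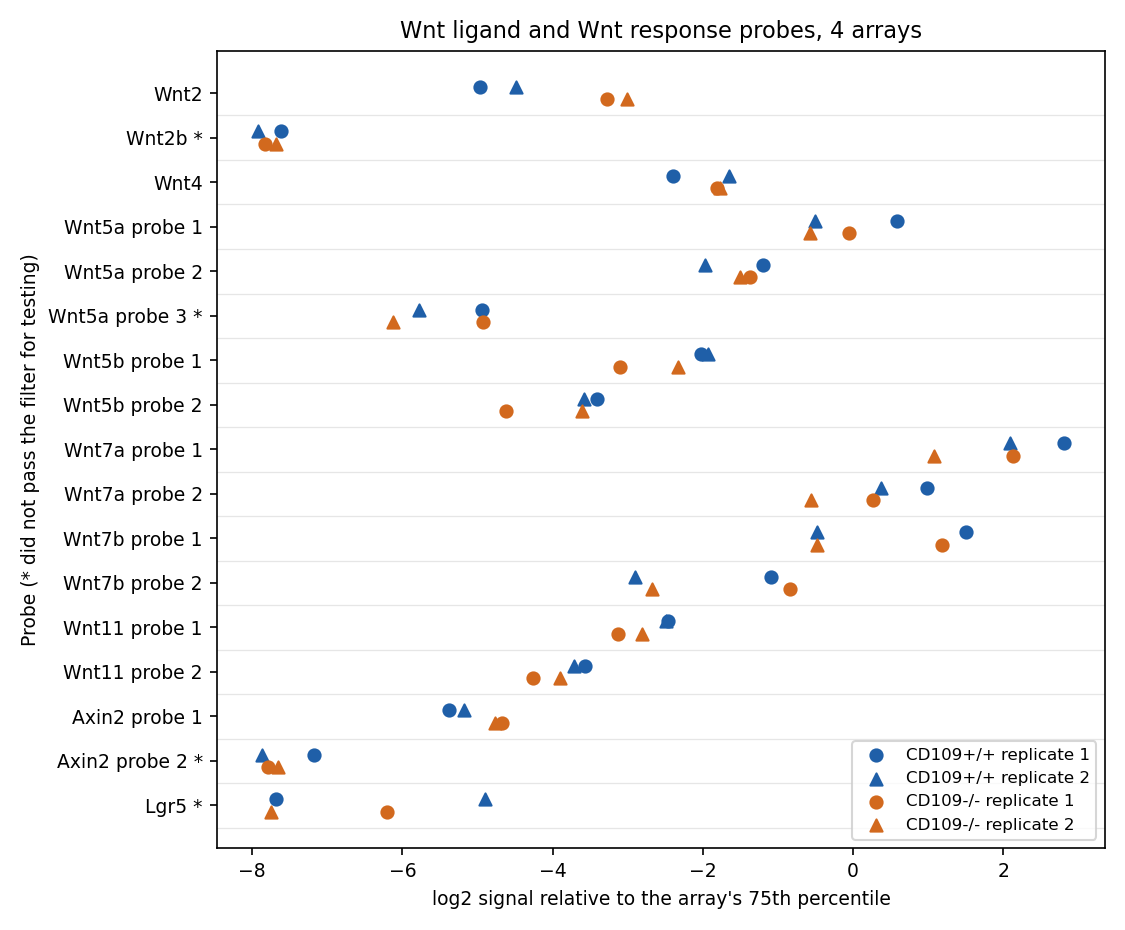
Log2 signal relative to each array's 75th percentile (x axis) for the 17 probes (y axis) on the 4 arrays; colour gives the genotype and shape the replicate, and an asterisk marks the 4 probes that did not pass the filter. Wnt2 and Axin2 probe 1 lie to the right in CD109-/- tumours, Wnt11 and Wnt5b to the left, and the Wnt7b points pair by shape, not by colour.

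Wnt2, the lung mesenchymal ligand, was read by 1 probe. Its log2 signals were -4.96 and -4.49 in the controls and -3.28 and -3.02 in CD109-/- tumours, corresponding to processed signals of 17.9, 29.8, 69.5 and 85.0. Both CD109-/- samples therefore lay above both controls, and the gap between genotypes exceeded the gap within either. The difference was 1.57 ± 0.28 (SE, n = 2 per genotype; 95% interval 0.85 to 2.30), with limma's adjusted p = 0.551 over all probes. It ranged from 1.34 to 1.81 when each array was left out in turn. With normexp background correction and an offset of 50, which exceeds the signal of this dim probe in the controls, it was 0.57. In bulk tumour RNA, more cells of a type and more RNA per cell cannot be told apart. All 10 lung fibroblast markers (Pdgfra, Col1a1, Col1a2, Col3a1, Dcn, Lum, Inmt, Tcf21, Fgf10 and Mfap4) also gave higher values in CD109-/- tumours, with a median difference of 1.12. Of the 10, 9 did not overlap between genotypes, where 20.3% of all genes tested were higher without overlap. Col1a1 overlapped, with a difference of 0.06. Dcn only just separated, with 3.5218 in CD109+/+ replicate 2 and 3.5223 in CD109-/- replicate 1. The summed signal of the 10 markers, in multiples of the array's 75th percentile, was 32.7 and 31.4 in the controls and 56.0 and 53.0 in the tumours without CD109. Such sums weigh strong signals most. All 6 macrophage markers were likewise higher, 5 of them without overlap, with sums of 22.7 and 18.2, then 35.3 and 31.2. The 3 club cell markers were higher too, 2 of them without overlap, and summed to 77.7 and 125, then 220 and 279. Scgb3a2 overlapped, at -0.21 and 3.81, then 2.33 and 4.95. Of 5 T cell markers 4 were higher, 3 of them without overlap, with sums of 3.08 and 2.82, then 3.49 and 3.21. Cd8a overlapped, and Cd4 was not higher, with a difference of -0.12. Each of the 10 fibroblast markers was above background on at least 1 array. Fgf10, the macrophage marker Cd163 and the T cell marker Cd8a cleared it on neither CD109+/+ array, and Tcf21 on only 1. Fgf10, Tcf21 and Cd163 thus entered the test through the CD109-/- group alone, and all 3 are among the markers counted without overlap. Of the other cell types, smooth muscle had 5 of 6 markers higher (4 without overlap), endothelium 6 of 6 (2) and ciliated cells 5 of 5 (0). Mesothelium had 3 of 5 higher (3), alveolar type 2 cells 4 of 8 (3), alveolar type 1 cells 4 of 6 (0) and B cells 1 of 3 (0). The part of any of these cell types in the Wnt2 difference was not tested.

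The stretch before the Wnt2 start, shown because Wnt2 had the largest difference among the members, was read from the RefSeq promoter table (GRCm38.p6, chr6:18030446-18030695, minus strand, 5′ to 3′ along the gene; a predicted transcript begins further upstream). Capitals would mark the TCF/LEF core CTTTGAT on either strand, and this window holds none.
Wnt2: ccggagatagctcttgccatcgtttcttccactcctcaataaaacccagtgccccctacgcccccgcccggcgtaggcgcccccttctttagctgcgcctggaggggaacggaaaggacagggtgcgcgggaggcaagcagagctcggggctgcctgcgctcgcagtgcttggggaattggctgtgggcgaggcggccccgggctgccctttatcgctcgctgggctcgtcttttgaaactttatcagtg

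Wnt2b, the close relative of Wnt2, was not well above background on any array, with log2 signals of -7.62 and -7.93 in CD109+/+ tumours, against -7.83 and -7.68 in CD109-/- tumours. These values are at the level of the dim probes and give no fold.

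Among the ligands best known for signalling without beta-catenin, Wnt5a, Wnt5b and Wnt11 did not share 1 direction. Wnt5b was read by 2 probes placed on different transcripts. Probe 1 gave -2.02 and -1.93 in the controls and -3.11 and -2.33 in CD109-/- tumours. Probe 2 gave -3.41 and -3.58, then -4.62 and -3.61. On both probes the lowest sample was CD109-/- replicate 1, the only male. On probe 2 CD109-/- replicate 2 lay just below CD109+/+ replicate 2. The differences were -0.74 ± 0.33 (95% interval -1.60 to 0.11; limma's adjusted p = 0.757) and -0.62 ± 0.39 (-1.63 to 0.39; 0.805). Without CD109-/- replicate 1, which leaves females only, they were -0.35 and -0.12, and without CD109-/- replicate 2 they were -1.13 on both probes. Sex and genotype cannot be told apart in CD109-/- replicate 1.

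Wnt11, which guides cell movements in the embryo, was likewise read by 2 probes. Probe 1 gave -2.47 and -2.49 in CD109+/+ tumours, against -3.14 and -2.81 in CD109-/- tumours. Probe 2 gave -3.57 and -3.71, then -4.26 and -3.90. The 2 control samples were nearly identical on probe 1, and on both probes the CD109-/- samples lay below them. The differences were -0.50 ± 0.25 (95% interval -1.13 to 0.13; limma's adjusted p = 0.765) and -0.44 ± 0.25 (-1.09 to 0.22; 0.792), so that the intervals included 0. With normexp the second was -0.22. Without CD109-/- replicate 1 the 2 values were -0.34 and -0.26.

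The 7 members found in the RefSeq promoter table had 10 windows of 250 bases before a transcript start, and 2 of the 10 held the core CTTTGAT or its reverse complement ATCAAAG, 1 each in Wnt11 and Wnt5b. Of all 32851 windows of this length in the table, 3.21% held it. The Wnt11 window is shown as 1 of the 2 with a match (GRCm38.p6, chr7:98834862-98835111, plus strand). Capitals mark the match, which begins 51 bases before the start. The other Wnt11 window and the other Wnt5b windows hold none, and neither does the Wnt7a window. Whether a match goes with the direction of the values was not tested. A match in these letters is a description and not a binding site.
Wnt11: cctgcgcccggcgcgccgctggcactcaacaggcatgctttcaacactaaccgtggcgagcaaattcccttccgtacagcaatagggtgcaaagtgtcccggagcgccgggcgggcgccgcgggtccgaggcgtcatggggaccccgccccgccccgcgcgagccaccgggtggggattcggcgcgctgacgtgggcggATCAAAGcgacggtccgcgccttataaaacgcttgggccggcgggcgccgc

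Wnt5a was read by 3 probes of the same accession, which did not agree in sign. Probe 1 gave 0.58 and -0.51 in the controls and -0.05 and -0.58 in CD109-/- tumours. Probe 2 gave -1.20 and -1.98, then -1.37 and -1.50. On both, CD109+/+ replicate 1 was the highest and the genotypes overlapped, with differences of -0.35 ± 0.44 (95% interval -1.49 to 0.79; limma's adjusted p = 0.904) and 0.15 ± 0.33 (-0.71 to 1.01; 0.951). Probe 3, not tested, was well above background on replicate 1 of each genotype only, at -4.94 and -4.92, and read -5.78 and -6.13 on the others. Wnt4, a ligand of epithelial and stromal development, gave -2.40 and -1.66 in CD109+/+ tumours, against -1.81 and -1.78 in CD109-/- tumours. Both CD109-/- values lay between those of the controls, and the difference was 0.24 ± 0.32 (95% interval -0.60 to 1.07; limma's adjusted p = 0.911). Without CD109+/+ replicate 1 the sign of Wnt4 turned (-0.14), as did that of Wnt5a probe 1 (0.20), and without CD109+/+ replicate 2 that of Wnt5a probe 2 (-0.24).

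Wnt7a, related to Wnt7b and able to signal through beta-catenin or without it, had 2 probes on 1 accession. Probe 1 gave 2.81 and 2.09 in the controls and 2.13 and 1.08 in CD109-/- tumours. Probe 2 gave 0.99 and 0.37, then 0.26 and -0.57. The order of the 4 samples was the same on both except that CD109+/+ replicate 2 and CD109-/- replicate 1 changed places. The lowest was CD109-/- replicate 2. The differences were -0.85 ± 0.46 (95% interval -2.03 to 0.33; limma's adjusted p = 0.785) and -0.83 ± 0.40 (-1.85 to 0.18; 0.762). Without CD109-/- replicate 1 they were -1.38 and -1.25, and without CD109-/- replicate 2 they were -0.32 and -0.42. Leaving out CD109+/+ replicate 1 gave -0.49 and -0.52.

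Wnt7b, the airway epithelial ligand, set samples apart within each genotype. Probe 1 gave 1.50 and -0.48 in CD109+/+ tumours, against 1.19 and -0.47 in CD109-/- tumours. Probe 2 gave -1.10 and -2.90, then -0.84 and -2.67. On both probes replicate 1 of each genotype was high and replicate 2 low, with gaps of 1.99 and 1.66 on probe 1 and 1.80 and 1.83 on probe 2. The differences between genotypes were -0.16 ± 0.85 (95% interval -2.33 to 2.02; limma's adjusted p = 0.984) and 0.24 ± 0.84 (-1.92 to 2.40; 0.971). These standard errors take in the gap between replicates. The sign followed the array left out: probe 1 gave 0.84 without CD109+/+ replicate 1 and 0.68 without CD109-/- replicate 2, and probe 2 gave -0.66 without CD109+/+ replicate 2 and -0.67 without CD109-/- replicate 1. Among the other members, every Wnt5a probe and Wnt7a probe 1 also had both replicate 1 values above both replicate 2 values. Wnt7a probe 2 did not, and the gaps of the Wnt5a and Wnt7a probes were smaller, at 1.10 and 0.52 on Wnt5a probe 1. Of 63 cell type markers examined, 10 had this arrangement (Col1a1, Acta2, Actg2, Msln, Krt19, Sftpb, Aqp5, Marco, Cd4 and Cd8a), and 8 had the opposite arrangement. In 2 of the 10, mesothelin (Msln) and the keratin gene Krt19, the gap was over 1 in each genotype. Msln gave 6.05 and 3.35 in the controls, then 5.46 and 2.98, and Krt19 gave 5.28 and 4.04, then 5.17 and 3.68. Both genes are also expressed by lung carcinoma cells, and the other 3 mesothelium markers (Upk3b, Wt1 and Lrrn4) did not share the arrangement. The smooth muscle markers summed to 19.9 and 16.2, then 25.9 and 18.5, in multiples of the 75th percentile. Replicate 1 of each genotype had the larger sum, but of the 6 markers only Acta2 and Actg2 held the arrangement. Myh11 was lower in replicate 1 of each genotype. Alveolar type 2 markers summed to 1089 and 1119, then 1116 and 1045, although their member Sftpb had 8.01 and 7.59, then 7.72 and 7.23. The part of any cell type in the Wnt7b values was not tested.

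**Figure D2:**
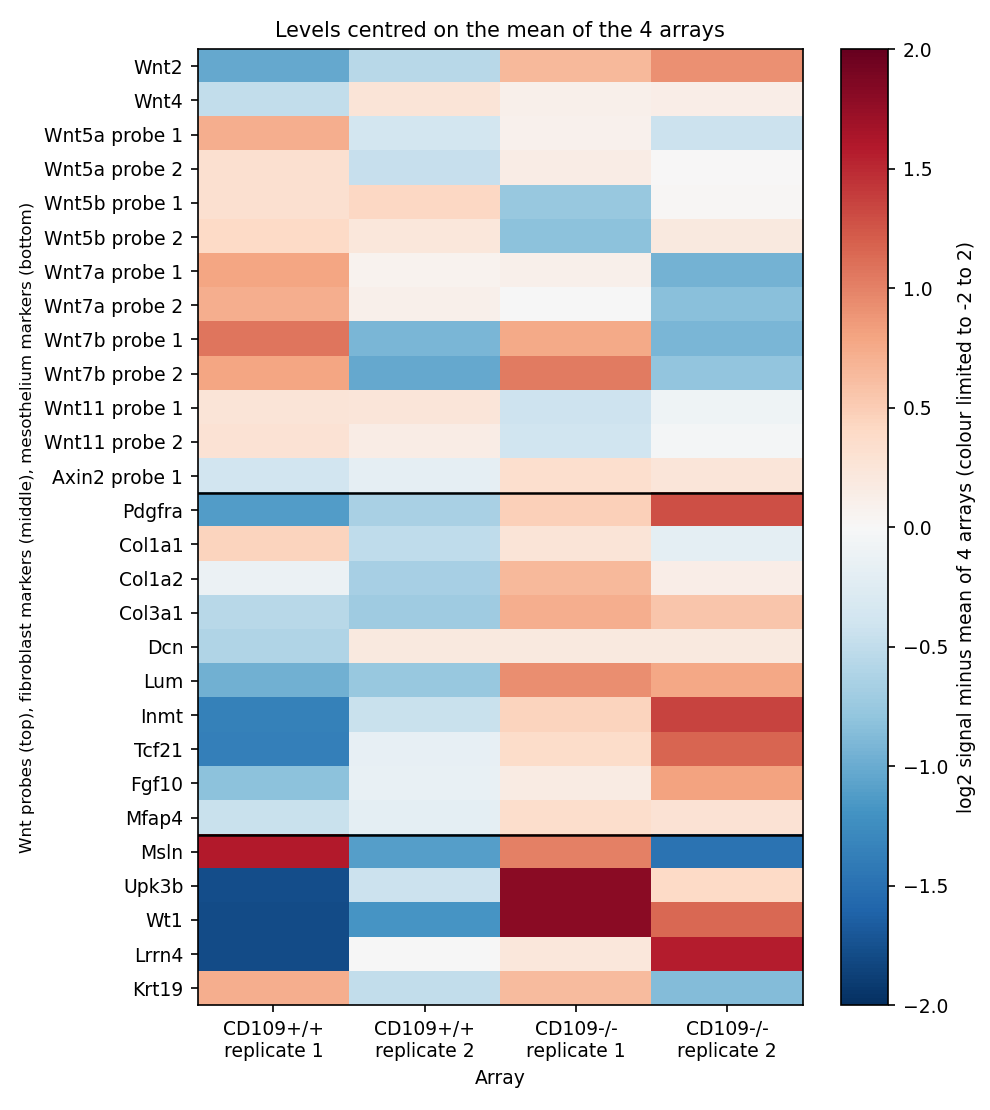
Log2 signal of each probe minus its mean over the 4 arrays (colour, limited to -2 to 2), for the 13 tested Wnt probes, 10 lung fibroblast markers and 5 mesothelium markers (rows) on the 4 arrays (columns). Wnt2 and most fibroblast markers are blue in both CD109+/+ columns and red in both CD109-/- columns, and Wnt7b, Msln and Krt19 are red in replicate 1 of both genotypes.

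Axin2, the readout of beta-catenin signalling, had 2 probes, of which 1 was tested. Probe 1 gave -5.39 and -5.19 in CD109+/+ tumours, against -4.67 and -4.77 in CD109-/- tumours, and the genotypes did not overlap. The difference was 0.57 ± 0.23 (95% interval -0.03 to 1.17; limma's adjusted p = 0.740). The processed signals behind it were only 13.3, 18.4, 26.6 and 25.3. With normexp and its offset of 50 the difference was 0.03. Probe 2 was not well above background on any array, with values between -7.87 and -7.17, and gives no second reading.

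The stretch before the Axin2 start is shown because Axin2 stands for the response to Wnt (GRCm38.p6, chr11:108920099-108920348, plus strand; predicted transcripts begin further upstream). It holds no match to the core CTTTGAT on either strand, which says only that these letters are not in this window.
Axin2: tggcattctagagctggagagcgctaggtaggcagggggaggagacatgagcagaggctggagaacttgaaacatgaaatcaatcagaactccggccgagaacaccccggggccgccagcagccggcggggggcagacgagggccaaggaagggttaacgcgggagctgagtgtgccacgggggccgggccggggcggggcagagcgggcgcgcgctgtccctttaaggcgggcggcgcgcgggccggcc

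Lgr5, the second response gene, was well above background in 1 sample only, CD109+/+ replicate 2. Its log2 signals were -7.68 and -4.90 in the controls and -6.21 and -7.75 in CD109-/- tumours. The 2 control samples thus held both the highest value and 1 of the 2 lowest. Lgr5 was not tested, and since the mean of the controls lay under the lowest signal well above background, no fold is given.

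**Figure D3:**
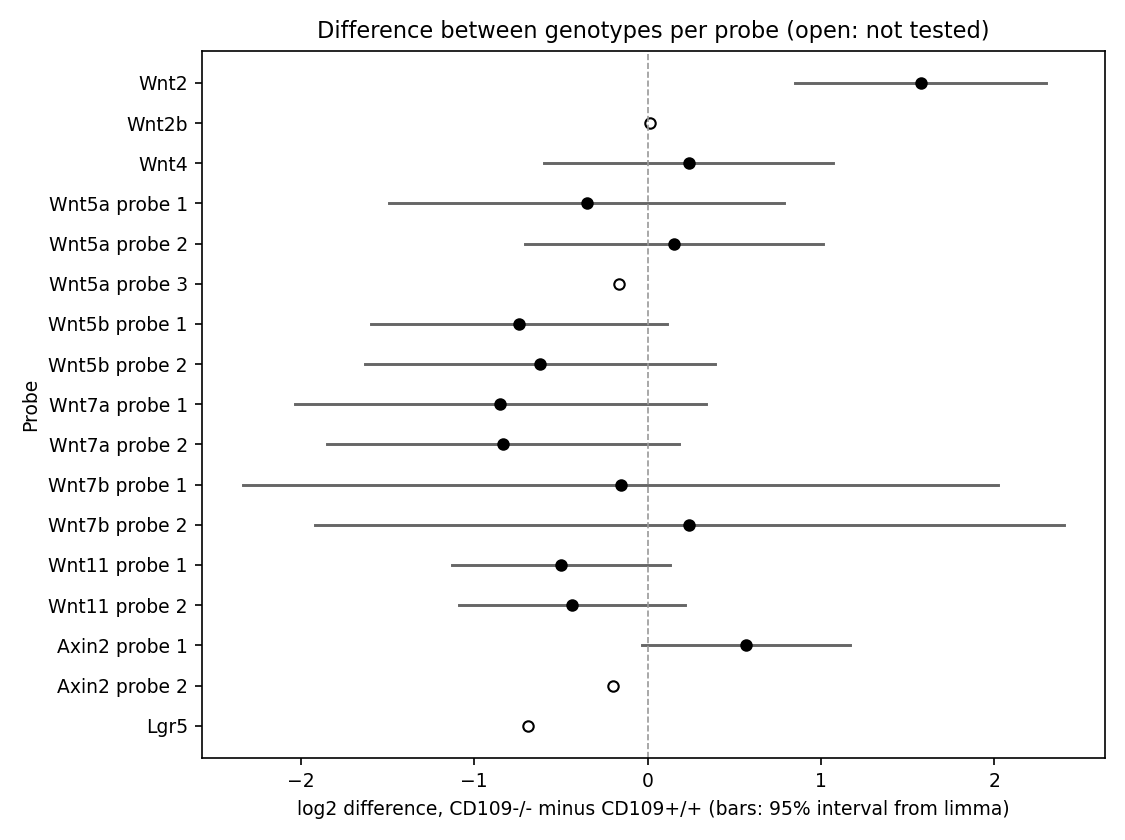
Log2 difference, CD109-/- minus CD109+/+ (x axis), for the 17 probes (y axis), with the 95% interval from limma for the 13 tested probes; open points were not tested. The interval of Wnt2, from 0.85 to 2.30, lies above 0, and those of the other 12 tested probes include 0.

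The rest of the pathway was read from 9 lists of 80 genes in all, each gene by its brightest tested probe. Of these, 64 genes were tested and 0 passed limma's threshold (lowest adjusted p = 0.551). With an unadjusted p under 0.05, 6 genes were higher in CD109-/- tumours and 4 were lower, against 5.05% higher and 2.48% lower over all 16445 genes tested. Requiring signal on all 4 arrays left 3 and 3. When single arrays were left out the higher count was 4 to 8, and the lower count 0 to 5; dropping CD109+/+ replicate 1 left 1 lower gene, and dropping CD109+/+ replicate 2 left 0. In all 35 of the 64 had differences above 0, where 50.3% of all genes did, and 17 lay higher and 8 lower without overlap between genotypes, where 20.3% and 18.2% of all genes did. The median difference was 0.01, against 0.00 over all genes.

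The lowest p of the 64 genes was that of a secreted antagonist, Sfrp1. Sfrp1 and Sfrp2 belong to the frizzled-related proteins, which bind Wnts outside the cell. Sfrp1 gave -5.31 and -4.72 in CD109+/+ tumours, against -2.25 and -3.03 in CD109-/- tumours, a difference of 2.37 ± 0.38 (limma's adjusted p = 0.551). Sfrp2 did not clear background in either CD109+/+ sample, where it read -7.28 and -6.22. On the CD109-/- arrays it read -4.66 and -4.41, so that it was at least 2.33-fold higher there (limma's adjusted p = 0.551 from the measured values). For that bound each control array was given either its own Sfrp2 value or the dimmest value still well above background, whichever was greater. Of the 8 antagonists tested, 4 had higher and 4 lower values. With normexp Sfrp1 was at 0.94 and Sfrp2 at 0.35.

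R-spondins strengthen Wnt signals by keeping frizzled receptors on the cell surface. Rspo1 gave -5.46 and -2.87 in the controls and -2.05 and -1.42 in CD109-/- tumours, and its difference of 2.43 ± 0.87 (limma's adjusted p = 0.701) was 1.14 without CD109+/+ replicate 1. Lgr4, an R-spondin receptor like Lgr5, gave -5.67 and -4.57, then -2.82 and -3.39, a difference of 2.01 ± 0.45 (limma's adjusted p = 0.580). Both were above background on 1 of the 2 CD109+/+ arrays and on both CD109-/- arrays, so they entered the test through the CD109-/- group alone and had no test where signal on all 4 arrays was required. With normexp they were at 1.11 and 0.60. Of the 5 mesothelium markers, Upk3b, Wt1 and Lrrn4 lay higher in both CD109-/- samples. The brighter Msln and Krt19 overlapped between genotypes with differences of -0.48 and -0.24. Wt1 stood at -7.03, -6.43, -3.44 and -4.10. Wt1 and Lrrn4 cleared background on neither CD109+/+ array, and Upk3b on 1 of the 2. Upk3b, Wt1 and Lrrn4 were thus tested through the CD109-/- group alone, and their measured differences are not sizes of change. The part of mesothelium in the Rspo1 and Lgr4 differences, and that of the fibroblast and macrophage markers given with Wnt2, was not tested.

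Of the 11 other Wnt ligands 5 were tested, and 4 of these had higher values. Wnt3a, a classical activator of beta-catenin, gave -4.46 and -4.08 in CD109+/+ tumours, against -3.49 and -2.74 in CD109-/- tumours, a difference of 1.15 ± 0.35 (limma's adjusted p = 0.638; 0.36 with normexp). Wnt9a stood at 0.75 ± 0.25 (limma's adjusted p = 0.680; 0.40 with normexp). Among the receptors, 5 of 8 frizzled genes had lower values, with Fzd2 at -0.82 ± 0.31 (limma's adjusted p = 0.715; -0.50 without CD109-/- replicate 1) and Fzd5 at 0.46 ± 0.35, which was 0.02 without CD109-/- replicate 1. The 6 co-receptors split 3 and 3, with Ror1 at 0.48 ± 0.61 and Lrp5 at -0.09 ± 0.25. Wnt secretion genes lay close to 0, with Porcn, which attaches the lipid to Wnts, at 0.25 ± 0.30 and Notum, which removes it, at -0.18 ± 0.30. Ror1, Lrp5, Porcn and Notum each changed sign when 1 array was left out.

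Inside the cell the differences were mostly small. The dishevelled and destruction complex genes split 5 and 5, with the kinase gene Gsk3a at -0.31 ± 0.23 and Apc at -0.32 ± 0.26. Among TCF/LEF factors and their co-factors 6 had higher and 6 lower values. Tcf7l1, which mostly represses Wnt targets, gave 1.09 and 2.06 in the controls and -0.16 and 0.72 in CD109-/- tumours, a difference of -1.30 ± 0.47 (limma's adjusted p = 0.702), and the co-repressor gene Tle4 stood at 0.62 ± 0.32. With single arrays left out Tcf7l1 ranged from -1.78 to -0.81, Tle4 from 0.26 to 0.98 and Apc from -0.51 to -0.12. Of the 8 other response genes, 5 had higher and 3 lower values. Ascl2, a stem cell transcription factor of the intestine, gave -0.85 and -0.86 in CD109+/+ tumours, against -2.08 and -1.64 in CD109-/- tumours, a difference of -1.0 ± 0.26 (limma's adjusted p = 0.614). Tnfrsf19 stood at 0.39 ± 0.25 and its second probe at 0.94. Axin2 probe 1 and Ascl2, both counted as responses to Wnt, thus had opposite signs on the same arrays. The interval of Axin2 included 0, however, and its difference was 0.03 with normexp.

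**Figure D4:**
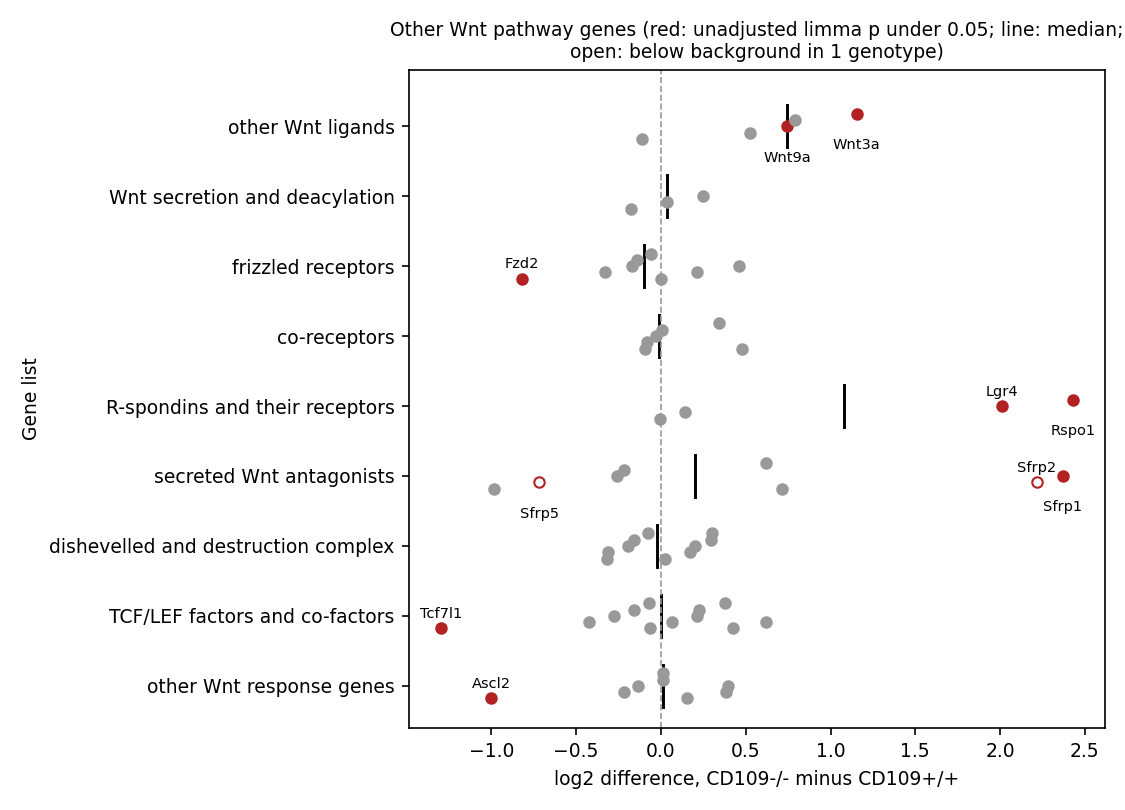
Log2 difference, CD109-/- minus CD109+/+ (x axis), of 64 other Wnt pathway genes in 9 lists (y axis); each point is 1 gene, the vertical line is the list's median, and red named points have an unadjusted limma p under 0.05. Open points were below background on both arrays of 1 genotype, so their measured differences are not sizes of change: Sfrp2 was at least 2.33-fold higher and Sfrp5 at least 1.34-fold lower. Sfrp1, Rspo1 and Lgr4 lie above 2, and Tcf7l1 and Ascl2 lie at -1.30 and -1.0.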

How the data were processed

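Total RNA (100 ng, Cy3) of 4 lung tumour samples went onto single-colour Agilent arrays, per the protocols in the labels, and was grouped by the genotype in the labels. The authors' scanner files hold intensity values from Agilent Feature Extraction 12.1.0.3, per the file headers; the processed signal is background-subtracted and not scaled between arrays. The other deposited columns used, per the file headers, were 0 or 1 marks for background, saturation and outliers and median intensity for normexp. A table deposited by the authors holds intensity values equal to each array's processed signal times 1 constant (1.19, 1.21, 1.04 and 1.08; column medians 58.8, 76.1, 59.5 and 69.2; not centred; how the authors chose them: not given in the sources used here). Control spots and outlier spots (58 to 73 per array) were dropped, and repeated spots averaged; no member probe lost a value. Probes were named by accession through RefSeq (GRCm38.p6), 34566 of 56605. Genotypes were compared with limma 3.58.1 (R 4.3.3), two-sided, without covariates, adjusted over all 35777 probes; the fit was tested on simulated data. Promoter windows are RefSeq's; Wnt5a, Wnt7b and Lgr5 were not among them.

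Named were all members, the 2 genes of lowest p in each other list, and Cd109. Members and lists were chosen with earlier results of these data known; the markers set beside Wnt2, Wnt7b and the R-spondins, and Sfrp5, were picked after values were seen. The 4 arrays share 1 slide and 1 scan, per the file headers, so these cannot be blocks. Alternatives were normexp, quantile and median scaling, the authors' values, other filters, a variance trend, the replicate block, sex, the mean of a gene's probes and leaving out each array.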

Additional observations from a re-analysis of the deposited data

How the results depend on the processing

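Over 13 alternatives, 8 of the 13 tested member probes kept their direction, and none passed the threshold (lowest limma adjusted p = 0.237). With single arrays left out, the values of probes whose sign turned ranged from -0.14 to 0.61 (Wnt4), -0.90 to 0.20 and -0.24 to 0.54 (Wnt5a probes 1 and 2), -1.15 to 0.84 and -0.67 to 1.16 (Wnt7b probes 1 and 2), -0.036 to 0.53 (Porcn), -0.47 to 0.12 (Notum), -0.40 to 1.36 (Ror1) and -0.25 to 0.075 (Lrp5). Leaving out an array leaves a lone sample, which is assumed to vary like the other group. With sex as a covariate, Wnt7b probe 2 was at -0.67 and the Wnt7a probes were at -1.38 and -1.25. Because CD109-/- replicate 1 is the only male, this covariate gave the same differences as leaving that array out, and is not a separate check. The number of member probes with an unadjusted limma p under 0.05, 1 in the main comparison, was 2 with quantile normalization. Over all tested probes that share was 6.81% in the main comparison and 7.16% with quantile normalization. The number of member probes also moved with sex as a covariate, which in effect leaves 1 CD109-/- sample, so that number is not given. The count of lower pathway genes, 4, was 2 with the authors' values and 0 to 5 when an array was left out; that of higher ones, 6, was 3 with signal required on all 4 arrays and 4 to 8 when an array was left out. Over all probes 0 to 2 were called when an array was left out, the 2 without CD109-/- replicate 2. Normexp shrank dim probes, since its offset of 50 is added to every signal. Other scalings moved the median of all tested probes by less than 0.1. Samples with the same replicate number deviated together (r = 0.35 over tested probes), but the labels do not pair them. With a replicate block, 4 member probes had an unadjusted limma p under 0.05, where 11% of all tested probes did, and 0 passed. The block changed no call. The standard errors of the Wnt7b differences were then 0.23 and 0.22 (limma's adjusted p = 0.836 and 0.721).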
